A study of Mus with 10 samples.

Results

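The genes examined here encode the subunits, activators, inhibitor and assembly chaperones of the proteasome in mouse liver type 1 innate lymphoid cells (ILC1s). They were taken by name, as every row of the count table whose symbol opens with *Psma* to *Psmg* followed by a number. Of 24564 rows, 50 matched, and the 48 with a summed count of at least 100 over all libraries were kept. The proteasome is the barrel-shaped protease that degrades ubiquitin-tagged proteins. Its core particle, termed 20S, stacks rings of alpha and beta subunits, and the 19S regulatory particle recognizes, unfolds and feeds in the substrate. In lymphocytes and in cells exposed to interferon-gamma (IFN-γ), 3 catalytic beta subunits are exchanged for the immunoproteasome subunits encoded by *Psmb8*, *Psmb9* and *Psmb10*, which alter the peptides available for presentation on MHC class I.

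ILC1s are tissue-resident lymphocytes that express the activating receptor NKp46, encoded by *Ncr1*. RNA-seq was performed on ILC1s sorted from the livers of *Ncr1+/+* mice (5 libraries) and *Ncr1gfp/gfp* mice (5 libraries), in which *gfp* is inserted in place of *Ncr1* in the germline. Mice were on the C57BL/6 background, 6 to 8 weeks old and of either sex, and received no treatment. The study's gating was lineage-negative NK1.1+ CD49a+ CD49b-, with NKp46 used to define *Ncr1+/+* ILC1s and GFP to define *Ncr1gfp/gfp* ILC1s, so that the gate and the genotype cannot be told apart. The labels do not say whether each library came from a single mouse, and the study speaks of RNA pools, so the p-values below measure the spread between these libraries.

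Total counts per library ranged from 17996935 to 22623133 in *Ncr1+/+* and from 15796253 to 21975879 in *Ncr1gfp/gfp* ILC1s. *Ncr1* itself averaged 259 CPM (counts scaled by TMM to a common library size) in *Ncr1gfp/gfp* libraries, which was 12.7% of the *Ncr1+/+* mean. Markers of ILC1s were present throughout, with the summed level of 9 of them between 4941 and 5193 CPM in *Ncr1gfp/gfp* and between 5049 and 5317 CPM in *Ncr1+/+* ILC1s. Of the 9, *Itga1* was higher (log2 fold change 0.32, adjusted p = 0.000481) and *Il7r* lower (-0.97, adjusted p = 0.00773, both edgeR) in *Ncr1gfp/gfp* ILC1s. Of 5 tested T cell markers, *Cd3e*, *Cd3g* and *Cd8a* passed the test, all higher in *Ncr1gfp/gfp* ILC1s. The 7-gene list summed to between 633 and 835 CPM there against between 461 and 579 CPM in *Ncr1+/+* ILC1s. Most of that sum was *Cd3g*, at 595 to 793 CPM in *Ncr1gfp/gfp* and 442 to 554 CPM in *Ncr1+/+* ILC1s. No other gene of the list exceeded 38.8 CPM in any library. The untested *Cd8b1* and *Cd5* had 29 and 90 counts in all and were at 0 in several libraries. Of 7 natural killer (NK) cell markers, *Itgam* passed the test and was higher in *Ncr1gfp/gfp* ILC1s. The 7 NK markers summed to between 476 and 542 CPM there and between 428 and 473 CPM in *Ncr1+/+* ILC1s, without overlap. Log2 fold changes were 0.52 for *Eomes*, 0.27 for *Itga2* and -0.30 for *S1pr5*, and none of these passed (adjusted p = 0.455, 0.331 and 0.828, edgeR). Of 5 tested dendritic cell markers, *Itgax* passed and was higher in *Ncr1gfp/gfp* ILC1s, while *H2-Aa*, *H2-Ab1*, *H2-Eb1* and *Cd74* had log2 fold changes between -1.37 and -0.84 and did not pass (lowest adjusted p = 0.0759, edgeR). Hepatocyte transcripts stood out in *Ncr1gfp/gfp* replicate 3 (56.3 CPM summed over 6 genes) and *Ncr1+/+* replicate 1 (30.6 CPM), and were between 1.68 and 5.23 CPM in the other libraries. Whether these transcripts came from other cell types, and the part of such cells in the values below, was not tested. In bulk samples, fewer cells of a type and less RNA per cell cannot be told apart.

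To determine whether the proteasome differed between NKp46-deficient and wild-type ILC1s, the 48 genes were compared between genotypes. None of the 48 passed the test, against 1.35% of all tested genes. The level of each of the 48 overlapped between the genotypes, while 3.11% of all tested genes did not overlap. With shares this low over all genes, few or none would be called among 48 genes. The log2 fold changes of *Ncr1gfp/gfp* over *Ncr1+/+* ILC1s ranged from -0.19 for *Psmf1*, the proteasome inhibitor PI31, to 0.17 for *Psmb5*, a constitutive catalytic subunit. The immunoproteasome subunits had log2 fold changes of -0.14 (*Psmb8*), -0.06 (*Psmb9*) and -0.02 (*Psmb10*). For 47 of the 48 genes, against 68.5% of all tested genes, the 95% interval of the fold lay between 0.7 and 1.5. These shares were not matched for depth, and the 48 genes had a median summed count of 9621, against 5577. Folds of 0.7 and 1.5 are the limits in the study's methods, used there together with an adjusted p. A larger limit is named in the study's results.

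Of the 48 genes, 0 had a Benjamini-Hochberg adjusted p under 0.05 in edgeR's quasi-likelihood test, against 1.35% of all 11463 tested genes. By direction, 0 were higher in *Ncr1gfp/gfp* ILC1s (background 0.567%) and 0 lower (background 0.785%). With the added limits on the fold from the study's methods (above 1.5 or below 0.7), 0 members were called, against 0.733% of tested genes, made up of 0.201% higher and 0.532% lower. DESeq2 and limma-voom also gave 0 members. At an unadjusted p under 0.05, edgeR gave 2 members, *Psmb8* and *Psmf1*, which is 4.17% of the 48, against 11.4% of all tested genes. Unadjusted, DESeq2 gave 2 members and limma-voom 3, the additional one being *Psme4*. CPM did not overlap between genotypes for 3.11% of tested genes and for none of the 48.

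The spread of the differences was narrow. The median log2 fold change of the members was -0.01, against 0.00 over all tested genes, and their median absolute log2 fold change was 0.05, against 0.10. Their median standard error was 0.09 on the log2 scale, against 0.12 over all tested genes, and the proteasome genes were also deeper, with a median summed count of 9621 against 5577. Among genes with a summed count between 5643 and 15340, the 24 members had a median absolute log2 fold change of 0.06 and the 2767 tested genes 0.08. In that range the median SD of log2 CPM within a genotype was also lower for the members, at 0.115 against 0.149. The interval of the fold lay inside 0.7 to 1.5 for 68.5% of tested genes. *Psmc3ip* was the exception among the members. This gene carries a proteasome-derived name but encodes a meiotic recombination factor, and it had the fewest counts of those kept, with 280 over all libraries and a fold interval from 0.457 to 1.83. Next widest was *Psmg4*, with 1287 counts and an interval from 0.705 to 1.5.

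**Figure D1:**
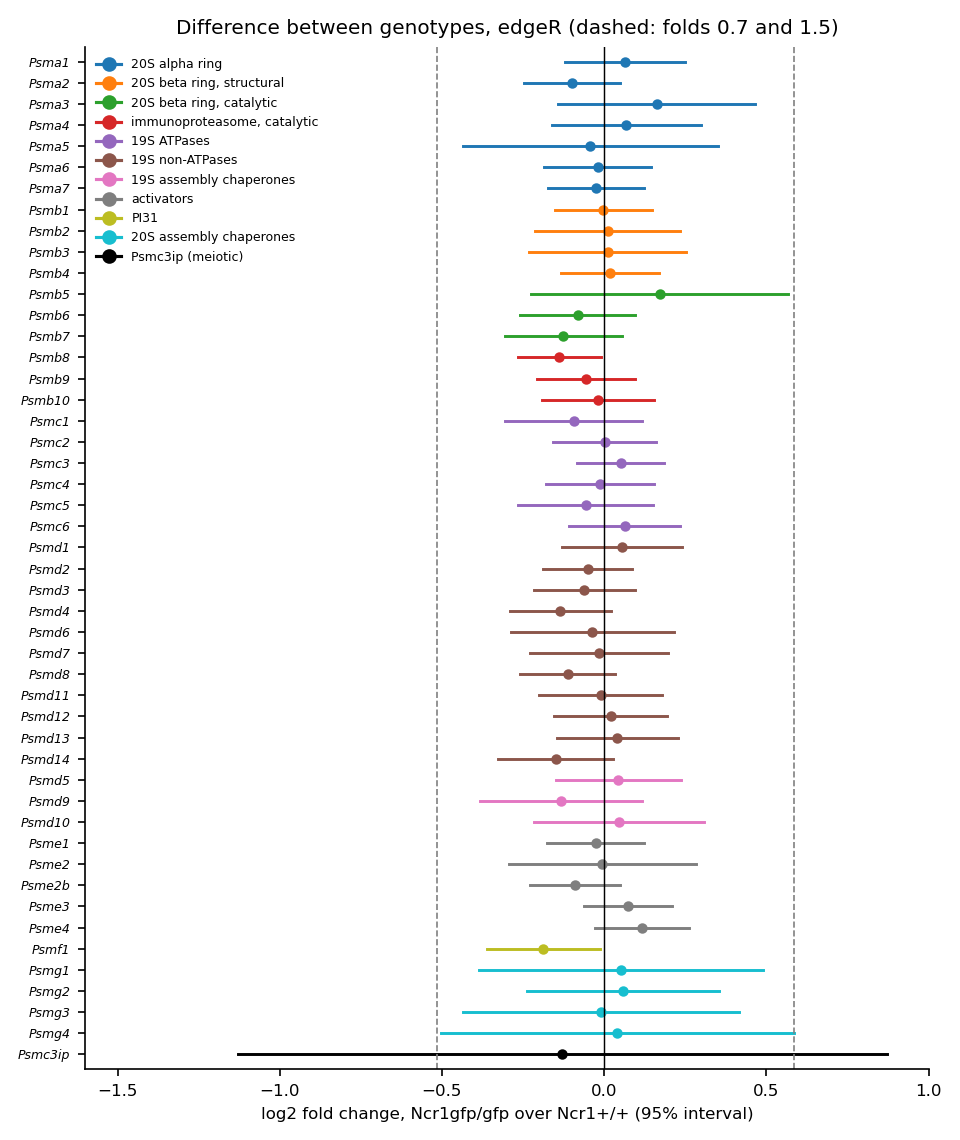
Log2 fold change of each of the 48 genes in *Ncr1gfp/gfp* over *Ncr1+/+* ILC1s (x axis), with its 95% interval from edgeR's quasi-likelihood fit, genes ordered by role (y axis) and coloured by it. Dashed lines mark folds of 0.7 and 1.5, and all intervals but that of *Psmc3ip* lie between them.

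Of the 48 genes, 28 had a lower and 20 a higher fitted level in *Ncr1gfp/gfp* ILC1s. The lower share was 58.3%, against 49.3% of all tested genes. Other scalings left 27 or 28 genes lower, but the split turned over when *Ncr1+/+* replicate 5 was left out (21 lower) or *Ncr1gfp/gfp* replicate 4 or 5 (22 lower each), and it was 33 lower without *Ncr1gfp/gfp* replicate 2. The split thus changed with single libraries.

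The alpha ring forms the gate of the core particle, and its 7 kept subunits comprised 4 with a lower and 3 with a higher fitted level in *Ncr1gfp/gfp* ILC1s. *Psma2* CPM was 68.1, 69.0, 67.4, 66.7 and 75.2 in *Ncr1+/+* ILC1s and 66.5, 67.1, 65.9, 63.6 and 60.1 in *Ncr1gfp/gfp* ILC1s (values here and below are in the order of replicates 1 to 5). The groups met at 1 point only, where *Ncr1gfp/gfp* replicate 2 exceeded *Ncr1+/+* replicate 4. The log2 fold change of *Psma2* was -0.10 with an adjusted p of 0.677 in edgeR, whereas the two-sided exact permutation test of its mean CPM gave p = 0.0159 before any correction for the 48 genes tested. *Psma3* had the lowest level per kilobase of exon in the ring, and its CPM was 10.3, 12.2, 13.1, 12.4 and 10.4 in *Ncr1+/+* and 14.1, 11.8, 11.4, 13.0 and 15.2 in *Ncr1gfp/gfp* ILC1s. The libraries overlapped widely (log2 fold change 0.16, standard error 0.15, adjusted p = 0.764 in edgeR). The span of *Psma3*, introns included, overlaps that of *3110056K07Rik* on the opposite strand by 4263 bases, more than the 2398 exon bases of *Psma3*. The library kit does not mark strand, but whether exons of the 2 genes overlap was not measured.

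The beta ring carries the active sites, and its structural subunits *Psmb1* to *Psmb4* were nearly level between genotypes, with log2 fold changes between 0.00 and 0.02. *Psmb4*, the most abundant of them per kilobase, had 92.7, 103, 102, 110 and 111 CPM in *Ncr1+/+* and 101, 111, 117, 97.0 and 99.0 CPM in *Ncr1gfp/gfp* ILC1s. *Psmb3*, the least abundant, had 29.4, 24.3, 27.3, 24.3 and 29.2 CPM in *Ncr1+/+* and 25.5, 33.8, 27.1, 26.3 and 22.6 CPM in *Ncr1gfp/gfp* ILC1s. For *Psmb3*, the highest and the lowest library were both *Ncr1gfp/gfp*, and for *Psmb4* the lowest was *Ncr1+/+* and the highest *Ncr1gfp/gfp*.

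The constitutive catalytic subunits cut after different residues: *Psmb5* encodes the chymotrypsin-like, *Psmb6* the caspase-like and *Psmb7* the trypsin-like activity. *Psmb5* CPM was 6.5, 6.04, 6.8, 9.29 and 9.74 in *Ncr1+/+* and 7.94, 7.36, 9.21, 9.87 and 8.81 in *Ncr1gfp/gfp* ILC1s. This was the shallowest of the catalytic genes, with 1526 counts in all, and its fold interval was among the wider ones (0.856 to 1.48, adjusted p = 0.826 in edgeR). *Psmb6* CPM was 41.2, 42.3, 39.8, 46.8 and 43.8 in *Ncr1+/+* and 39.4, 44.2, 38.3, 41.4 and 38.6 in *Ncr1gfp/gfp* ILC1s, a log2 fold change of -0.08 (adjusted p = 0.812, edgeR). *Psmb7* CPM was 37.6, 41.4, 45.4, 42.5 and 44.0 in *Ncr1+/+* and 40.7, 39.2, 39.1, 38.9 and 35.5 in *Ncr1gfp/gfp* ILC1s. For *Psmb7*, 4 of 5 *Ncr1+/+* libraries were above every *Ncr1gfp/gfp* library, and *Ncr1+/+* replicate 1 was below 4 of them (log2 fold change -0.13, adjusted p = 0.652 in edgeR; two-sided exact permutation p = 0.0635).

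The immunoproteasome subunits were considered apart. *Psmb8* encodes LMP7, which takes the place of the *Psmb5* product. Its CPM was 267, 245, 274, 299 and 281 in *Ncr1+/+* ILC1s and 229, 270, 255, 246 and 241 in *Ncr1gfp/gfp* ILC1s, or 273 ± 20 and 248 ± 15.6 (SD, n = 5). The values overlapped because *Ncr1+/+* replicate 2 was low and *Ncr1gfp/gfp* replicate 2 was high for its group. The log2 fold change was -0.14 with a standard error of 0.06, and the 95% interval of the fold ran from 0.831 to 0.993. This was the narrowest interval of all members and the lowest adjusted p, 0.376 (unadjusted p = 0.0355, edgeR), while the two-sided exact permutation test gave p = 0.0635. Across the 20 alternative fits, the log2 fold change of *Psmb8* stayed between -0.18 and -0.10 and its adjusted p between 0.197 and 0.677.

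*Psmb9*, which encodes LMP2 and substitutes for the *Psmb6* product, had 71.0, 61.2, 66.4, 67.1 and 70.3 CPM in *Ncr1+/+* and 66.3, 60.7, 62.9, 65.7 and 67.8 CPM in *Ncr1gfp/gfp* ILC1s. Its fold interval was 0.867 to 1.07 (log2 fold change -0.06, adjusted p = 0.852, edgeR). *Psmb10*, which encodes MECL-1 and substitutes for the *Psmb7* product, had 127, 95.1, 123, 130 and 127 CPM in *Ncr1+/+* and 105, 123, 130, 123 and 112 CPM in *Ncr1gfp/gfp* ILC1s. *Ncr1+/+* replicate 2 was the lowest of all libraries for *Psmb10*, and without it the log2 fold change moved from -0.02 to -0.10, with an adjusted p of 0.686 in edgeR. The sign of this small difference was positive in 3 of the 20 alternatives. The 3 immunoproteasome subunits together had 465, 401, 464, 496 and 479 CPM in *Ncr1+/+* and 400.2, 455, 448, 435 and 421 CPM in *Ncr1gfp/gfp* ILC1s. The *Ncr1gfp/gfp* mean was lower by 6.36% and the groups overlapped through *Ncr1+/+* replicate 2 (461 ± 36.0 against 432 ± 21.7, SD, n = 5).

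**Figure D2:**
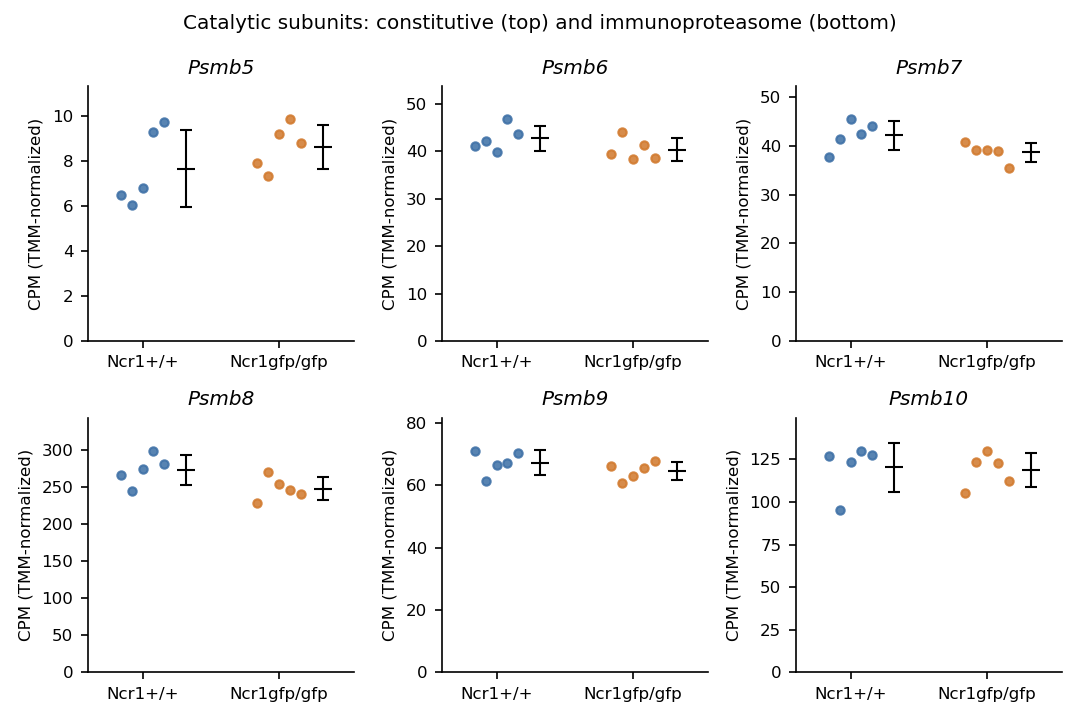
CPM of the constitutive catalytic subunits *Psmb5*, *Psmb6* and *Psmb7* and of the immunoproteasome subunits *Psmb8*, *Psmb9* and *Psmb10* (y axes, from 0) in each of the 5 *Ncr1+/+* and 5 *Ncr1gfp/gfp* libraries (points), with mean and SD (bars). For *Psmb8* the *Ncr1+/+* libraries lie between 245 and 299 CPM and the *Ncr1gfp/gfp* libraries between 229 and 270 CPM, and the groups overlap in all 6 panels.

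Levels of different genes were compared per kilobase of annotated exon. *Psmb8* had the highest mean of the 48 genes over all libraries, at 223 ± 16.3 CPM per kb in *Ncr1+/+* and 203 ± 12.8 CPM per kb in *Ncr1gfp/gfp* ILC1s (SD, n = 5). *Psme1* was next, at 209 ± 18.0 and 205 ± 18.4 CPM per kb, within the spread of *Psmb8* and above its mean in *Ncr1gfp/gfp* ILC1s. *Psmb4* followed at 109 ± 7.70 and 111 ± 9.20 CPM per kb. Each immunoproteasome subunit was thus higher per kilobase than the constitutive subunit it replaces, in every library of both genotypes.

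The ratio of each pair was calculated in each library. *Psmb8* over *Psmb5* was 29.2, 28.9, 28.7, 23.0 and 20.6 in *Ncr1+/+* and 20.5, 26.2, 19.7, 17.8 and 19.5 in *Ncr1gfp/gfp* ILC1s, with means of 26.1 ± 4.02 and 20.7 ± 3.20 (SD, n = 5). *Ncr1gfp/gfp* replicate 2 lay among the *Ncr1+/+* values, and *Ncr1+/+* replicate 5 among the *Ncr1gfp/gfp* values. The denominator was the gene with 1526 counts, and no test was made of this ratio, which was chosen with the values of both genes known. *Psmb9* over *Psmb6* was 2.03 ± 0.168 in *Ncr1+/+* and 2.07 ± 0.186 in *Ncr1gfp/gfp* ILC1s. *Psmb10* over *Psmb7* was 2.19 ± 0.305 and 2.35 ± 0.217. Taking the 3 immunoproteasome genes over the 3 constitutive ones, the ratio was 4.30 ± 0.300 in *Ncr1+/+* and 4.25 ± 0.196 in *Ncr1gfp/gfp* ILC1s, so the summed balance was close in both genotypes. Without division by exon length, the ratios of the separate pairs moved by less than 1.5 times.

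**Figure D3:**
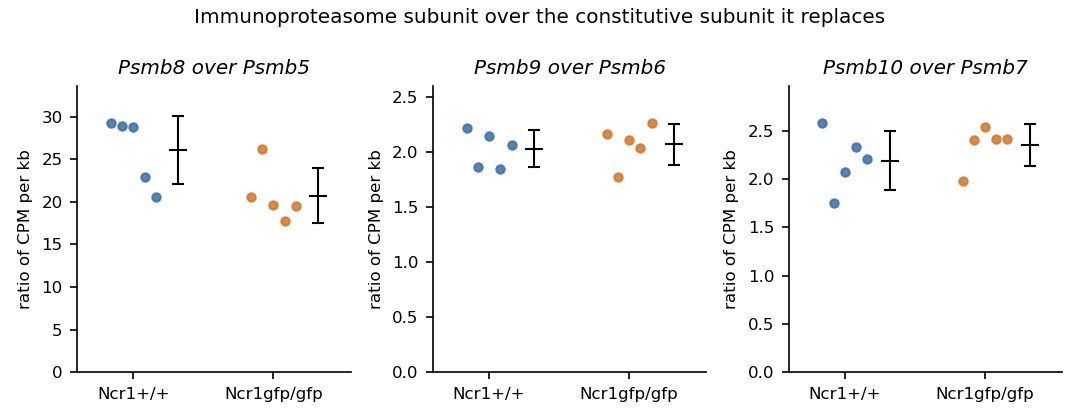
Ratio of each immunoproteasome subunit to the constitutive subunit it replaces, in CPM per kb of exon (y axes, from 0), for each library (points), with mean and SD (bars, n = 5 per genotype). *Psmb8* over *Psmb5* spans 20.6 to 29.2 in *Ncr1+/+* and 17.8 to 26.2 in *Ncr1gfp/gfp* libraries, and the other ratios lie between 1.75 and 2.57.

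The genes of the immunoproteasome lie within the MHC region in part. In the deposited gene table, whose genome build is not named and whose coordinates differ from those of GRCm38, *Psmb9* is at chr17:34319044-34324275 on the minus strand and *Psmb8* at chr17:34335140-34338399 on the plus strand. *Tap1*, which encodes a subunit of the transporter that carries proteasome-cut peptides to MHC class I, sits between them, at 225 bases from *Psmb9* and 969 bases from *Psmb8*. *Tap2*, the other transporter subunit, begins 3024 bases beyond *Psmb8*. *Psmb10* is elsewhere, at chr8:108459628-108462292. *Tap1* and *Tap2* had log2 fold changes of -0.02 and -0.09 between the genotypes, and neither passed the test.

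The base of the 19S particle unfolds substrates through a ring of 6 ATPases, *Psmc1* to *Psmc6*. Of these, 3 had a lower and 3 a higher fitted level, with log2 fold changes between -0.09 (*Psmc1*) and 0.06 (*Psmc6*). *Psmc3*, the most abundant per kilobase, had 109, 122, 110, 116 and 113 CPM in *Ncr1+/+* and 118, 130, 115, 117 and 111 CPM in *Ncr1gfp/gfp* ILC1s, and its fold interval, from 0.944 to 1.14, was among the narrowest. *Psmc1*, the least abundant, had 63.2, 48.8, 53.4, 42.4 and 47.4 CPM in *Ncr1+/+* and 54.8, 49, 44.4, 45.6 and 45.3 CPM in *Ncr1gfp/gfp* ILC1s, its highest value coming from *Ncr1+/+* replicate 1.

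Among the 11 non-ATPase subunits of the 19S particle, 8 had a lower and 3 a higher fitted level in *Ncr1gfp/gfp* ILC1s, and the lowest adjusted p was 0.524 (edgeR). That gene was *Psmd4*, which encodes a ubiquitin receptor and was the most abundant of this role per kilobase. Its CPM was 103, 83.7, 104, 91.5 and 92.7 in *Ncr1+/+* and 81.9, 93.1, 89.4, 79.9 and 88.0 in *Ncr1gfp/gfp* ILC1s. *Psmd14* encodes the deubiquitinase that removes ubiquitin chains from substrates entering the core. It had the fourth largest absolute difference of the 48, with 64.3, 72.0, 65.5, 58.1 and 62.9 CPM in *Ncr1+/+* against 52.7, 59.3, 64.4, 51.5 and 63.1 CPM in *Ncr1gfp/gfp* ILC1s. Replicates 2, 3 and 5 of *Ncr1gfp/gfp* lay within the *Ncr1+/+* values (log2 fold change -0.15, standard error 0.09, adjusted p = 0.540, edgeR). *Psmd11*, the least abundant per kilobase, had 39.9, 40.7, 39.1, 44.5 and 39.8 CPM in *Ncr1+/+* and 36.3, 45.2, 41.5, 43.5 and 36.1 CPM in *Ncr1gfp/gfp* ILC1s.

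Activators open the core particle in place of the 19S particle. *Psme1* and *Psme2* encode the alpha and beta subunits of the IFN-γ-inducible activator PA28, and *Psme2b* is an additional *Psme2* gene with a single exon. *Psme1* CPM was 216, 196, 184, 197 and 227 in *Ncr1+/+* and 208, 222, 208, 188 and 176 in *Ncr1gfp/gfp* ILC1s, with a fold interval from 0.886 to 1.09. *Psme2* CPM was 23.4, 16.5, 17.2, 14.9 and 18.8 against 18.2, 21.8, 17.7, 17.2 and 15.4, and *Psme2b* CPM was 117, 99.5, 109, 105 and 103 against 99.3, 104, 102, 105 and 91.2. The counted level of the single-exon *Psme2b* was 5.49 ± 0.718 times that of *Psme2* per kilobase in *Ncr1+/+* and 5.15 ± 0.480 times in *Ncr1gfp/gfp* ILC1s (SD, n = 5). The 2 genes are near-identical copies, and reads that fit both could be left uncounted. Their separate levels and their ratio are therefore uncertain. The span of *Psme2b* also overlaps that of *9930111J21Rik1* on the same strand by 261 bases.

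*Psme3* encodes the nuclear activator PA28-gamma, and *Psme4* encodes PA200, known for its role in degrading acetylated histones. *Psme3* had 129, 132, 134, 130 and 142 CPM in *Ncr1+/+* and 145, 157, 136, 130 and 133 CPM in *Ncr1gfp/gfp* ILC1s. *Psme4* had 172, 173, 158, 143 and 153 CPM in *Ncr1+/+* and 170, 157, 162, 188 and 188 CPM in *Ncr1gfp/gfp* ILC1s, where only replicates 4 and 5 exceeded the highest *Ncr1+/+* library. The log2 fold changes were 0.07 for *Psme3* (adjusted p = 0.762) and 0.12 for *Psme4* (adjusted p = 0.574, both edgeR).

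*Psmf1* encodes PI31, which binds the core particle and inhibits it in vitro. Its CPM was 54.9, 53.9, 55.9, 46.7 and 58.4 in *Ncr1+/+* and 51.2, 49.3, 47.1, 43.7 and 45.6 in *Ncr1gfp/gfp* ILC1s, or 54 ± 4.38 and 47.4 ± 2.99 (SD, n = 5). All *Ncr1+/+* libraries but replicate 4 were above all *Ncr1gfp/gfp* libraries. This was the largest absolute difference of the 48, a log2 fold change of -0.19 with a standard error of 0.08 and a fold interval from 0.778 to 0.991. It did not pass the test (adjusted p = 0.383, unadjusted p = 0.0365, edgeR), and the two-sided exact permutation test gave p = 0.0317 before correction. The adjusted p stayed between 0.286 and 0.590 across the alternatives.

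Assembly chaperones are not part of the finished particle. *Psmg1* to *Psmg4* guide formation of the core, and *Psmd5*, *Psmd9* and *Psmd10* guide that of the 19S base. Of the core chaperones 3 of 4, and of the base chaperones 2 of 3, had a higher fitted level in *Ncr1gfp/gfp* ILC1s, with no adjusted p below 0.763. Per kilobase they were low, with means over all libraries between 7.22 (*Psmg1*) and 17.3 CPM per kb (*Psmg2*) for the core and between 8.08 (*Psmd9*) and 20.2 CPM per kb (*Psmd5*) for the base chaperones. *Psmd9* was 19.2, 21, 20, 23.4 and 26 CPM in *Ncr1+/+* and 22.4, 20.2, 18.5, 17.4 and 21.3 CPM in *Ncr1gfp/gfp* ILC1s, with the groups overlapping in most libraries.

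**Figure D4:**
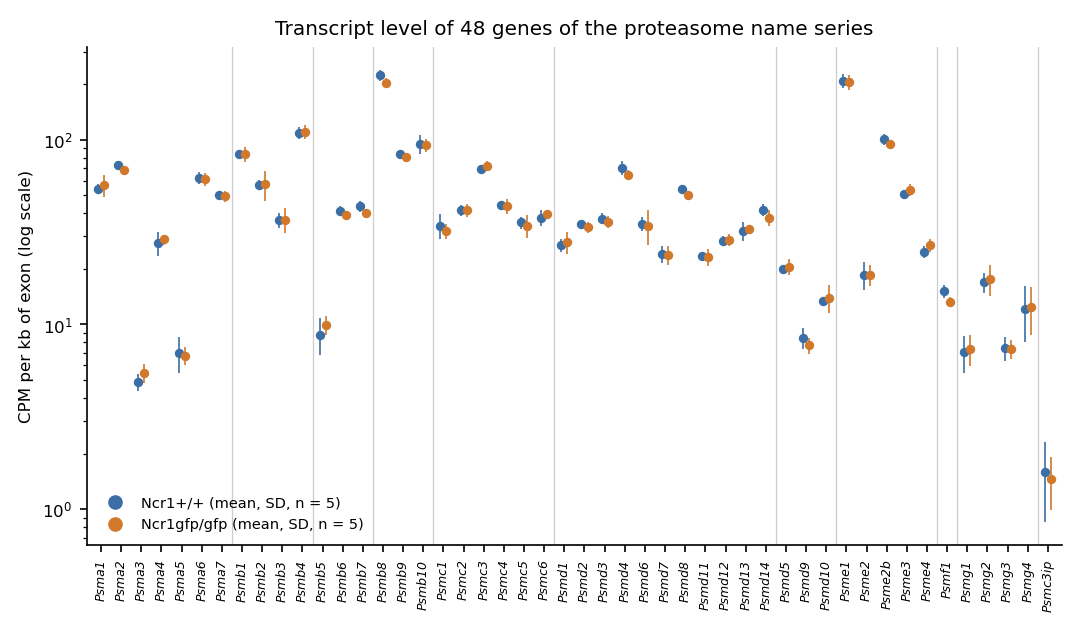
Mean CPM per kb of exon (y axis, log scale) of the 48 genes (x axis, ordered by role) in *Ncr1+/+* and *Ncr1gfp/gfp* ILC1s, with SD bars (n = 5 per genotype). *Psmb8* and *Psme1* are the highest, above 200 CPM per kb, and *Psmc3ip* is the lowest, while the points of the genotypes lie close together throughout.

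Subunits of the same ring stand in equal numbers in the particle, but their transcripts did not stand at equal levels. Within the alpha ring, *Psma2* (70.8 CPM per kb, mean over all libraries) was 13.7 times as high as *Psma3* (5.17). Within the 19S ATPases the span was 2.15 times, and within the 19S non-ATPases 2.90 times. Among all constitutive core subunits, *Psmb4* was 21.3 times as high as *Psma3*. When levels were not divided by exon length, the lowest of them was *Psmb5*, and *Psmb4* was 12.8 times as high. The libraries were primed on polyA tails and the exon lengths are those of the annotation, so a level per kilobase also depends on which annotated exons the cells use.

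When the CPM of all genes of a role were summed, the genotypes overlapped for every role. The 14 constitutive core subunits summed to 695 ± 16.6 CPM in *Ncr1+/+* and 690 ± 38.2 CPM in *Ncr1gfp/gfp* ILC1s (SD, n = 5). The 17 subunits of the 19S particle summed to 1147 ± 11.9 and 1123 ± 41.2 CPM, the 5 activator genes to 622 ± 28.3 and 632 ± 21.2 CPM, and the 7 assembly chaperones to 121 ± 8.47 and 122 ± 5.97 CPM. *Ncr1gfp/gfp* replicate 2 was the highest library for the core, the 19S particle and the activators. All 48 genes together came to 3117, 3030, 3086, 3083 and 3187 CPM in *Ncr1+/+* and to 3032, 3210, 3082, 2954 and 2959 CPM in *Ncr1gfp/gfp* ILC1s. The *Ncr1gfp/gfp* mean was thus lower by 1.72%, with 3 libraries inside the *Ncr1+/+* range or above it.

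**Figure D5:**
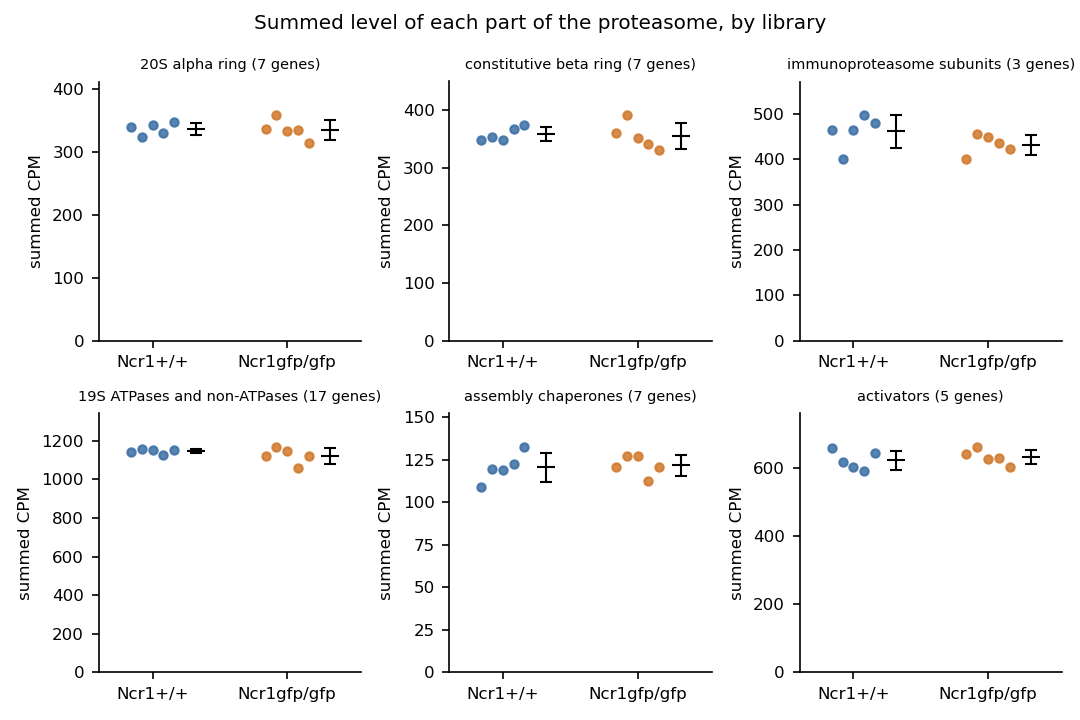
Summed CPM (y axes, from 0) of the genes of each role in each library (points), with mean and SD (bars, n = 5 per genotype). The groups overlap in every panel, with the immunoproteasome subunits between 401 and 496 CPM in *Ncr1+/+* and between 400.2 and 455 CPM in *Ncr1gfp/gfp* ILC1s.

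The 2 rows below the summed count of 100 belong to tissue-restricted subunits. *Psma8*, an alpha subunit of the testis, had 23 counts in all, from *Ncr1+/+* replicates 1 (5 counts) and 4 (9 counts) and *Ncr1gfp/gfp* replicate 4 (9 counts). *Psmb11*, the catalytic subunit of the thymoproteasome, had 0 counts in every library, where 3 counts, the limit that a count of 0 allows, correspond to between 0.132 and 0.190 CPM. *Psmb11* lies 7314 bases from *Psmb5* on chromosome 14.

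Genes that work with the proteasome but carry other names were examined from 5 lists, 48 tested genes in all, of which 0 had an adjusted p under 0.05 in edgeR and 6 an unadjusted p under 0.05 (background 1.35% and 11.4%). DESeq2 and limma-voom called 0 of them at an adjusted p under 0.05. Among 8 genes of proteasome assembly and function, *Pomp*, which encodes a chaperone needed to mature the core, had 61.1, 58.4, 61.6, 55.9 and 64.1 CPM in *Ncr1+/+* and 55, 62.7, 50.1, 44.3 and 49.5 CPM in *Ncr1gfp/gfp* ILC1s. Only *Ncr1gfp/gfp* replicate 2 reached the *Ncr1+/+* values (log2 fold change -0.20, adjusted p = 0.380, edgeR). *Usp14*, a deubiquitinase bound to the 19S particle, had 39.9, 46.5, 34.9, 38.4 and 39.5 CPM in *Ncr1+/+* and 46.9, 44.4, 50.8, 48.1 and 50.9 CPM in *Ncr1gfp/gfp* ILC1s. Here only *Ncr1+/+* replicate 2 reached the *Ncr1gfp/gfp* values (log2 fold change 0.27, adjusted p = 0.168, edgeR). *Pomp* and *Usp14* were the 2 genes of their list with an unadjusted p under 0.05.

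The transcription regulators of proteasome genes include *Nfe2l1*, which encodes the factor that restores proteasome expression when the protease is inhibited. Its CPM was 150, 168, 148, 151 and 166 in *Ncr1+/+* and 158, 193, 157, 158 and 148 in *Ncr1gfp/gfp* ILC1s. Of the 9 genes of this list, 5 had a lower and 4 a higher fitted level, and the lowest adjusted p was 0.559 (edgeR), for *Ngly1*, which encodes a deglycosylase that processes the *Nfe2l1* product. Among 15 ubiquitin genes and shuttle factors, 11 had a lower and 4 a higher fitted level. *Uba6*, a ubiquitin-activating enzyme, stood at 0.28 on the log2 scale of the fold and did not pass (adjusted p = 0.489, edgeR). Its CPM was 49.1, 47.5, 38.0, 37.2 and 40.3 in *Ncr1+/+* and 29.8, 61.5, 48.7, 59.1 and 57.9 in *Ncr1gfp/gfp* ILC1s. Leaving out *Ncr1gfp/gfp* replicate 1, the lowest of all libraries, widens this difference by construction (log2 fold change 0.42, adjusted p = 0.0484, edgeR). Without *Ncr1gfp/gfp* replicate 2 the log2 fold change was 0.21 (adjusted p = 0.684, edgeR). Over all alternatives the adjusted p of *Uba6* ranged from 0.0484 to 0.704.

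Inducers of the immunoproteasome had lower fitted levels for 8 of 8 genes, with a median log2 fold change of -0.10, against 0.00 over all tested genes. *Ifng*, which encodes IFN-γ, had 197, 174, 165, 203 and 133 CPM in *Ncr1+/+* and 104, 119, 122, 175 and 123 CPM in *Ncr1gfp/gfp* ILC1s. *Ncr1gfp/gfp* replicate 4 lay among the *Ncr1+/+* values, and *Ncr1+/+* replicate 5 was closer to the other *Ncr1gfp/gfp* libraries than to its own group. The log2 fold change was -0.44 and did not pass the test (standard error 0.12, adjusted p = 0.0683, edgeR). Leaving out a library that lay near the other genotype widens the difference by construction. Without *Ncr1gfp/gfp* replicate 4 the log2 fold change was -0.58 (adjusted p = 0.00386), and without *Ncr1+/+* replicate 5 it was -0.52 (adjusted p = 0.0147, both edgeR). Without *Ncr1gfp/gfp* replicate 1 it was -0.38 (adjusted p = 0.150, edgeR), and DESeq2 on all libraries gave -0.44 (adjusted p = 0.174). Over all alternatives the adjusted p of *Ifng* ranged from 0.00193 to 0.238.

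*Jak2*, which encodes a kinase of the IFN-γ receptor, had 569, 531, 595, 521 and 509 CPM in *Ncr1+/+* and 493, 457, 487, 495 and 494 CPM in *Ncr1gfp/gfp* ILC1s. It was the 1 gene of the 5 lists whose libraries did not overlap between genotypes, against 3.11% of all tested genes, and it did not pass the test (log2 fold change -0.17, adjusted p = 0.129, edgeR). For *Ifngr1*, the ligand-binding chain of the receptor, the log2 value was -0.16 (adjusted p = 0.330, edgeR). Further along the pathway, the transcription factor gene *Irf1* and the MHC class I transactivator gene *Nlrc5* had log2 fold changes of -0.03 and 0.00. Their levels were close in both genotypes, at 486 ± 37.5 and 475 ± 21.5 CPM for *Irf1* and 890 ± 84.9 and 889 ± 43.0 CPM for *Nlrc5* in *Ncr1+/+* and *Ncr1gfp/gfp* ILC1s (SD, n = 5).

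In the peptide-loading list for MHC class I, downstream of the proteasome, 4 of 8 genes had a lower and 4 a higher fitted level. The lowest adjusted p was 0.606 (edgeR), for *Tap2*, with 259, 235, 253, 268 and 270 CPM in *Ncr1+/+* and 245, 216, 253, 237 and 253 CPM in *Ncr1gfp/gfp* ILC1s. *B2m*, the light chain of MHC class I, had a log2 fold change of -0.04.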

How the data were processed

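RNA-seq was performed on liver ILC1s from *Ncr1+/+* and *Ncr1gfp/gfp* mice, 5 libraries each. Libraries were prepared by the authors from 2 ng of total RNA with an unstranded SMART-Seq kit and sequenced as single reads of 51 cycles. Adapters were removed by the authors, who aligned the reads to mm10 with STAR 020201, assigned them to genes with HTSeq 0.6.0 and deposited raw counts per gene, which were not normalized. No columns of other samples were in the table. Groups and replicate numbers came from the sample labels.

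The counts were filtered with filterByExpr, which kept 11463 genes, normalized by TMM and fitted with edgeR 4.0.16 (glmQLFit and glmQLFTest), with genotype as the only term, as the study used edgeR models. P-values were adjusted over all tested genes by the Benjamini-Hochberg method, with a threshold of 0.05, and 95% intervals used the fit's standard errors. Analyses were run in R 4.3.3, with limma 3.58.1 and DESeq2 1.42.0 as alternatives, and SciPy 1.17.1 for two-sided exact permutation tests of mean CPM, whose smallest possible p with 5 against 5 libraries is 0.00794. No pair of replicate libraries agreed within sampling noise (chi-square per gene of 9.25 to 24.1). Same-numbered libraries did not deviate together (correlations between -0.02 and 0.04), so the numbers were not treated as pairs.

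The 48 members and the gene lists were chosen with earlier results of these data known. Every member was counted. Those named with values had the 5 largest absolute differences or the highest or lowest level per kilobase in their role, or were *Psmb5* to *Psmb10*, *Psme1* to *Psme4*, *Psmf1*, *Psma8*, *Psmb11* and *Psmc3ip*. *Psmg4*, *Psmd6* and the genes named from the lists outside the family were picked after their values were seen. Summed levels and ratios are descriptions with no test. Of the other marker lists, 1 of 4 B cell, 2 of 6 hepatocyte, 9 of 9 macrophage, 2 of 4 endothelial and 1 of 6 erythroid genes could be tested and 0 passed, at summed levels of at most 5.88, 56.3, 81.5, 151 and 9.14 CPM. No neutrophil gene had enough counts to be tested, and the list summed to 10.5 CPM in *Ncr1gfp/gfp* replicate 3 and at most 1.72 CPM elsewhere. Alternatives were other scalings, filters and tests, a replicate block and leaving out libraries. Of the members, 7 overlap the span of another gene, and RefSeq (GRCm38.p6) lists 6 named pseudogenes for 4 of them, to which reads could be lost or gained. Protein and promoter sequences were not analysed here. Some genes of the lists are counted but not reported here by name.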

Additional observations from a re-analysis of the deposited data

Results flagged for a closer look

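In 4 of 124 groups of 5 libraries examined, 1 library stood apart from the other 4, its gap to the nearest exceeding 0.71 of the group's range, where chance would set apart about 6.2. *Psma2* in *Ncr1+/+* ILC1s was highest in replicate 5, at 75.2 CPM against 69.0 CPM in the next library. *Psmb10* in *Ncr1+/+* ILC1s was lowest in replicate 2, at 95.1 CPM, the next being 123 CPM. *Psmd6*, a non-ATPase subunit of the 19S particle, was lowest in *Ncr1+/+* replicate 1, at 38.6 CPM against 45.9 CPM. The ratio of *Psmb10* to *Psmb7* per kilobase was lowest in *Ncr1gfp/gfp* replicate 1, at 1.97 against 2.40.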

How the results depend on the processing

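The count of members past the adjusted threshold was 0 in each direction, with and without the study's limits on the fold, under all 20 alternatives, and the lowest adjusted p of any member was 0.197 (*Psmb8*, limma-voom). Leaving out 1 library at a time gave between 0 and 3 members at an unadjusted p under 0.05. With the replicate number as a block, 0 members and 1 gene of the inducer list passed. That gene, *Ifng*, was also the 1 that passed under edgeR's likelihood ratio test, with no filter on low counts and with at least 10 counts in every library (adjusted p = 0.0220, 0.0190, 0.00193 and 0.0458 in that order). Leaving out single libraries gave 0 to 1 genes in the inducer list and 0 to 1 in the ubiquitin list. The cause was not tested. Without division by exon length, *Psmb8* over *Psmb5* was 36.6 in *Ncr1+/+* and 29.1 in *Ncr1gfp/gfp* ILC1s, *Psmb9* over *Psmb6* 1.58 and 1.61, *Psmb10* over *Psmb7* 2.87 and 3.08, and the highest over the lowest constitutive core subunit (*Psmb4* over *Psmb5*) 12.8. The small fitted differences of *Psmb10*, *Psme1* and *Psme2* changed sign in 3, 2 and 8 alternatives. *Psmb5*, *Psmg3* and *Psmg4*, with 1526, 1223 and 1287 counts, had fold intervals reaching 1.48, 1.33 and 1.5, and differences inside such intervals were not detectable at this depth and spread.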
